A study of Arabidopsis thaliana with 4 samples.

Results

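Floral meristem identity and floral meristem termination in Arabidopsis thaliana are described here through 9 genes, LFY, UFO, WUS, CLV1, CLV3, KNU, SUP, ULT1 and PAN, out of 27444 protein-coding nuclear genes. They were chosen by locus identifier, for their known roles, with earlier results of these data known. Each was looked up in the authors' deposited table of genes bound by AGAMOUS (AG), and the positions of the binding peaks around each gene were then read from the deposited peak list. Of the 9 genes, 5 were in the target table (LFY, UFO, CLV1, SUP and ULT1) and 4 were not (WUS, CLV3, KNU and PAN). In the background, 6.62% of all protein-coding genes were in it.

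Binding was measured by chromatin immunoprecipitation followed by sequencing (ChIP-seq) in inflorescences of plants in the Ler-0 background, with an anti-GFP antibody. All plants of both groups carried 35S:AP1-GR, a fusion of AP1 with the glucocorticoid receptor driven by a viral promoter that is active in most tissues, in the ap1-1 cal-1 double mutant. Meristems of this mutant mostly do not form flowers before dexamethasone is given. All plants, about 4 weeks old, were treated with 10 μM dexamethasone. They were collected 4 days later, at about stage 4 to 5 of flower development. The AG-GFP group (2 libraries) also carried the tagged AG protein, and the negative control group (2 libraries) did not. Which promoter drives AG-GFP is not given in the sources used here. The tables hold DNA binding and no expression, so the labelled tissue could not be checked against marker genes, and neither the cell type nor the share of cells in which a site was bound can be read from them.

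A flower ends with its carpels because its meristem stops. LFY specifies the floral meristem and, with the F-box protein UFO and the homeodomain protein WUS, activates floral organ identity genes, AG among them. WUS keeps stem cells active and is held in check by the secreted peptide CLV3 and its receptor kinase CLV1. AG ends WUS expression later, in part through KNU, a zinc finger repressor. SUP, another zinc finger protein, sets the boundary between stamens and carpels. ULT1, a SAND-domain protein, and PAN, a bZIP protein, promote AG expression in the centre of the flower.

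The deposited values are 1 Poisson score per peak, made by the authors, and whether the libraries were pooled for it is not stated. A peak with a higher score is called stronger here, and the scale of the score is not given in the sources used here. Whether the score measures the amount of binding or its statistical support is not stated either. No value per library exists in the tables, so the scores carry no replicate error, the sequencing depth is unknown and no significance test was run. Positions are those of the peak list (TAIR10). Over all 1421 peaks the score ran from 36.35 to 12585.03 with a median of 139.67, and the highest belonged to AG itself.

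LFY (AT5G61850), the transcription factor that turns a shoot meristem into a flower, had a pair of weak peaks close to its start. The first lay at chr5:24844043-24844240, with its position 121 bp upstream of the gene, and was 198 bp wide. The second lay at chr5:24843022-24843108, 1187 bp upstream, and was 87 bp wide. Each scored 58.19, a value that 26 peaks of the list share and that exceeded 12.0% of the peaks. Among the target genes, 37 had this as their highest score, and 19 others had it in a region where LFY has it too, AT1G05710 and AT1G07160 being the first by locus identifier. Under the matching by score used here, the peaks at LFY are also assigned to the neighbouring GUT1 (AT5G61840). GUT1 is nearer to the second peak (918 bp) than LFY is. Both peaks have the same score, so this matching cannot tell which of them was listed for GUT1. LFY was thus at the weak end of the table, and under this matching its peaks are not assigned to it alone.

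UFO (AT1G30950), the F-box protein that acts with LFY, had 1 peak within 5000 bp and the highest listed score of the 9 genes. The peak lay at chr1:11033816-11034073, 2043 bp upstream, was 258 bp wide and scored 373.97. This exceeded 83.2% of the target genes and 83.2% of the peaks. No other gene of the target table is assigned this peak. The nearest annotated locus is AT1G09095, at 705 bp, which is not among the genes assigned this peak.

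CLV1 (AT1G75820), the receptor kinase that perceives CLV3, had peaks in 2 of the 5 regions of the table, all below the median score. The stronger lay at chr1:28467434-28467667, 527 bp upstream, was 234 bp wide, scored 109.48 and is assigned to CLV1 alone, although its position falls within the span of the locus AT1G09577. The weaker lay at chr1:28469688-28469807, 2772 bp upstream, was 120 bp wide and scored 88.08. It is also assigned to LCR67 (AT1G75830). Another peak, at chr1:28461335-28461521 with a score of 93.92, lay 1913 bp beyond the 3' end of CLV1, outside the 1000 bp of downstream sequence that the target table covers, and is assigned to AT1G75800 and AT1G75810. The scores of the 3 peaks thus ran from 88.08 to 109.48, and the highest exceeded 38.0% of the target genes.

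**Figure D1:**
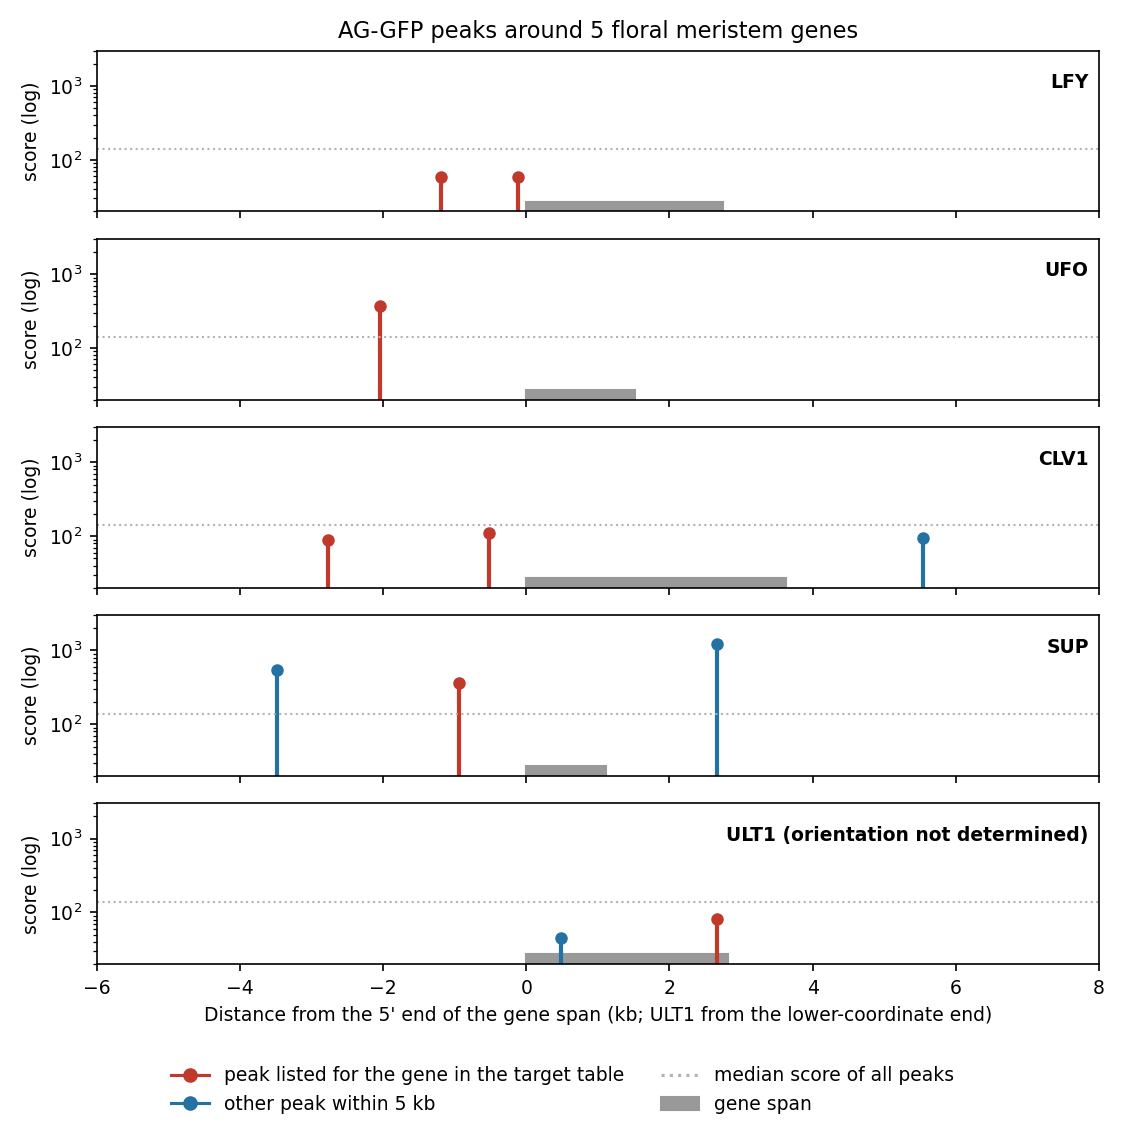
Peaks within 5 kb of the 5 genes in the target table. The horizontal axis is the distance in kb from the 5' end of the gene span, or for ULT1 from its lower-coordinate end. The vertical axis is the authors' Poisson score (log axis). Each stem is a peak, red where it is listed for the gene and blue where it is not, the grey bar is the gene span and the dotted line the median peak score of 139.67. The stem of 1238.74 on the 3' side of SUP is the highest in the plot and is not listed for SUP.

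SUP (AT3G23130), which keeps stamens out of the carpel whorl, was flanked by 3 peaks, and the target table lists the lowest of them. The listed peak lay at chr3:8241238-8241431, 937 bp upstream, was 194 bp wide and scored 365.01, above 82.4% of the target genes. The peak on the other side, at chr3:8244765-8245070, was 306 bp wide and scored 1238.74, which placed it at rank 38 of 1421. It lay 1549 bp beyond the 3' end, and SUP was the nearest annotated gene. The remaining peak, at chr3:8238584-8239007, was 424 bp wide, scored 540.34 and lay 3479 bp upstream, beyond the 3000 bp that the table covers. MIR173, a microRNA gene at 2523 bp, was nearer to this peak than SUP.

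Neither of the stronger SUP peaks is assigned to any gene of the target table. They scored above 97.3 and 88.6% of the peaks, and the listed peak above 82.5%. The neighbours of SUP, MIR173 and URO, lay 6001 and 7146 bp away, and no annotated gene lay between, so these peaks are intergenic. Of the 1421 peaks, 184 (12.9%) are assigned to no gene of the table, and 5 of these scored as high as the SUP downstream peak or higher. Of the 1817 protein-coding target genes, 24 (1.32%) had a stronger unassigned peak within 5000 bp. Only SUP, AT1G27570 and CLL2 (AT4G14723) had 2 of them, the last 2 genes being named after their values were seen. Among the target genes, 87 (4.79%) had 3 or more peaks within 5000 bp, as SUP and CLV1 did.

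ULT1 (AT4G28190), the SAND-domain regulator of AG and of meristem size, had its peaks inside the gene. The listed peak, at chr4:13987315-13987412, was 98 bp wide and scored 81.04, above 25.5% of the target genes. It lay 152 bp from the higher-coordinate end of the gene and is also assigned to AT4G28200. A weaker peak at chr4:13985164-13985256, 93 bp wide with a score of 44.86, lay 490 bp from the other end. The table gives only the highest score per region, so this peak does not appear for ULT1, and it is assigned to AT4G28180. The orientation of ULT1 could not be determined from the tables. The score of 81.04 was shared by 17 peaks, and 3 other genes had it inside the gene as their highest score, CYP71B20 (AT3G26180) and AT5G12440 among them.

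The 5 listed genes thus fell into a higher and a lower set. UFO and SUP differed by 8.96 score units and lay above the upper quartile of the peaks (278.78), while CLV1, ULT1 and LFY all lay below the median peak. When weaker peaks than the median were set aside, UFO and SUP were the 2 of the 9 genes left, against 3.42% of protein-coding genes. Counting only the gene and 1000 bp upstream left 4 of the 9, without UFO, against 3.31% of genes. Assigning each peak to the nearest protein-coding gene gave 5 of 9 against 4.55%. The same 5 genes had any overlap with a peak within 3000 bp on both sides, against 9.21%, and a peak position within 5000 bp, against 13%. The median of the highest scores was 109.48 for the 5 genes and 143.81 for all 1958 target genes. Of the 7 peaks listed for the 5 genes, 5 scored below the median peak, and their median width was 194 bp against 234 bp for the whole list.

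**Figure D2:**
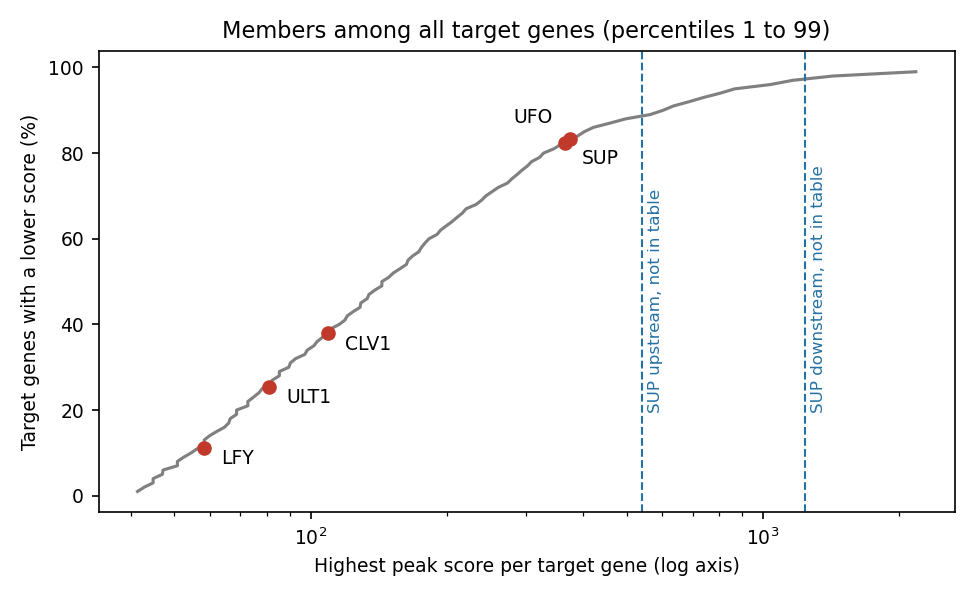
Highest score of the 5 genes in the target table (points) on the distribution over all 1958 target genes (grey line, percentiles 1 to 99). The horizontal axis is the authors' score (log axis) and the vertical axis the percentage of target genes with a lower score. UFO and SUP lie above 80% and the other 3 below 40%, and the dashed lines mark the unlisted SUP peaks at 540.34 and 1238.74.

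The position of the listed peaks varied between the genes. A peak within 1000 bp upstream was listed for LFY, CLV1 and SUP, as for 35.2% of all target genes. LFY also had one at 1000 to 2000 bp, like 19.3% of target genes, and UFO and CLV1 had one at 2000 to 3000 bp (19.4%). ULT1 was the only one of the 5 with a peak inside the gene (15.3%), and none had one within 1000 bp downstream (19.3%). LFY and CLV1 had peaks in 2 regions, as 150 target genes (7.66%) did in 2 or more. The highest listed peaks of UFO, CLV1 and SUP are assigned to no other gene, a situation found for 510 (26.6%) of the 1915 target genes that could be linked to a peak.

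WUS, CLV3, KNU and PAN were not in the table, and none had a peak within 10000 bp of its span, as was so for 77.6% of all protein-coding genes. Genes not in the table lay at a median of 33.8 kb from the nearest peak position, with quartiles of 14.6 and 72.2 kb. Sites below the authors' threshold would not be in the list, so these distances do not show that AG was absent from these genes.

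CLV3 (AT2G27250), the stem cell peptide that signals through CLV1, was the closest of the 4 to a peak, at 15.8 kb. That peak, at chr2:11649139-11649197, was 59 bp wide, scored 41.45, near the lower end of the list, and is assigned to AT2G27229 and LHW (AT2G27230). Of the genes not in the table, 26.9% lay closer to a peak. On the other side the next peak lay 56.7 kb away and scored 205.2. The ligand gene thus had no peak within 10000 bp. Its receptor gene CLV1 had 3 weak ones within 5000 bp, of which 2 are listed for CLV1. Of those 2, the peak of 88.08 is shared with LCR67.

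PAN (AT1G68640), the bZIP gene, lay 17.4 kb from a peak at chr1:25752059-25752391 that scored 254.18 and is assigned to AT1G68580. Of the genes not in the table, 29.5% lay closer. On its other side the next peak, with a score of 321.1, lay 107 kb away beside RAV2 (AT1G68840).

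KNU (AT5G14010), the zinc finger repressor that AG is known to activate, lay 52.4 kb from the nearest peak. That peak was at chr5:4575276-4575435, scored 65.95 and is assigned to MPL1 (AT5G14180) and IMD1 (AT5G14200). Of the genes not in the table, 65.3% lay closer. The next peak on the other side, which scored 269.46, was 70.5 kb away.

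WUS (AT2G17950), the stem cell gene that AG shuts off, lay farthest from any peak, at 109 kb. The peak was at chr2:7919287-7919452, scored 62.03 and is assigned to AT2G18193. Of the genes not in the table, 85.0% lay closer. On the other side no peak was listed for 1770 kb. WUS thus sits in a stretch of 1.88 Mb with no listed peak between its ends. It was the second longest of 1416 stretches between neighbouring peaks, whose median was 40.0 kb, and it held 353 protein-coding genes, the most of any stretch (the next had 324). The lack of a listed peak thus extended over a whole chromosome segment around WUS, and its cause was not tested. Of the 353 genes, 2 were in the target table, against 6.62% of all protein-coding genes. The peaks at the ends of the stretch lie 285 bp from AT2G14255 and 64 bp from AT2G18193, and each is assigned to that gene only. Over the whole series, 1915 of the 1916 matched target genes could be linked to a listed peak. Whether the peak list and the target table used here are complete in this segment could not be checked. The distance given for WUS, and its absence from the target table, therefore hold for these deposited data only. The stretches around CLV3, KNU and PAN were 73.3, 124 and 128 kb long and held 22, 41 and 31 protein-coding genes.

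**Figure D3:**
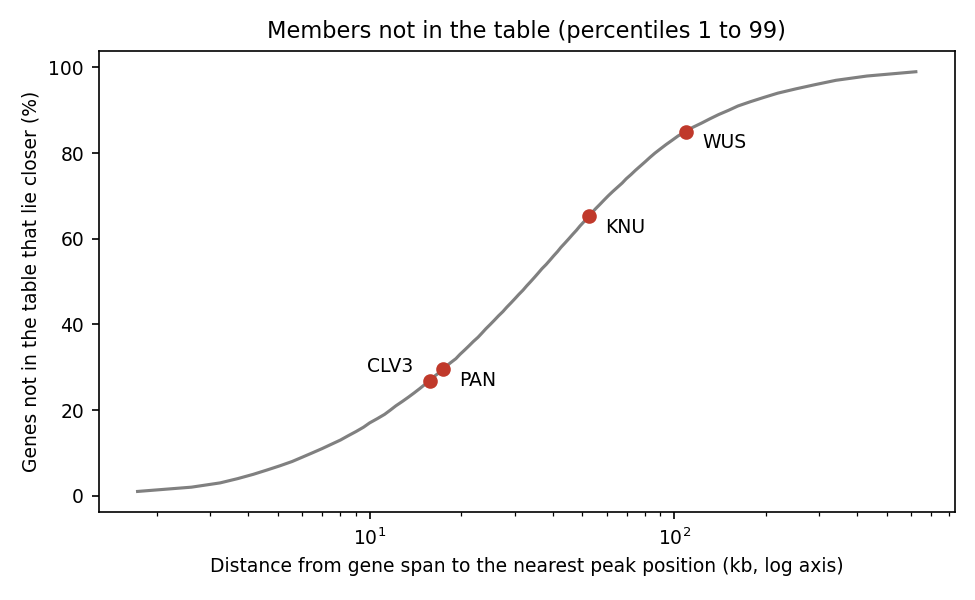
Distance from the gene span to the nearest peak position in kb (log axis) for the 4 genes not in the target table (points), on the distribution over the 25627 protein-coding genes not in it (grey line, percentiles 1 to 99). The vertical axis is the percentage of those genes that lie closer to a peak. CLV3 (15.8 kb) and PAN (17.4 kb) lie in the lower part of the distribution, KNU (52.4 kb) and WUS (109 kb) in the upper part.

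The other genes of these pathways were read from 4 lists of 57 genes in all, of which 18 (31.6%) were in the target table, against 6.62% of all protein-coding genes. These lists too were chosen with earlier results of these data known, so their counts are descriptions. In the list of floral meristem identity genes, 8 of 12 were in it. The highest score of these was 3529.42 for AP1, which acts beside LFY and is also the source of the inducible transgene. The MADS-box genes SVP and SOC1 followed with 1077.97 and 908.49. BOP1 and BOP2, which encode co-activators at organ boundaries, scored 301.85 and 204.08, and FUL, a close relative of AP1, 241.9. LMI2, a MYB gene downstream of LFY, scored 139.97 within 1000 bp upstream, and AGL24 scored 58.19 inside the gene, the same score as LFY. CAL, LMI1, TFL1 and PUCHI were not in the table.

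In the CLAVATA-WUSCHEL list, 2 of 19 genes (10.5%) were in the table, close to the 6.62% of all genes. ARR7, a response regulator gene of cytokinin signalling that WUS is known to repress, had a peak of 272.58 within 1000 bp upstream. STM, the homeobox gene that keeps meristem cells undifferentiated, scored 97.13, at 2000 to 3000 bp upstream. The genes not in the table were the receptor and co-receptor genes CLV2, CRN, RPK2, BAM1, BAM2, BAM3 and ER, the phosphatase genes POL and PLL1, and HAM1, HAM2, HAM3, TPL, AGO10, AHK4, ARR5 and ARR15. CLV1 was thus the only receptor gene of this circuit in the table, among the genes looked up here. RPK2 lay 3832 bp from a peak of 164.32, assigned to other genes, which scored above the highest CLV1 peak (109.48).

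In the floral determinacy list, 5 of 19 genes (26.3%), AG itself included, were in the table, against 6.62% of all protein-coding genes. AG, which the experiment itself tagged, scored 12585.03, SEP3, the gene of a MADS-domain partner of AG, 5153.51, and CRC, which acts with AG in the carpels, 1514.19. AP2, which opposes AG, scored 859.87, and PNF, a BELL homeobox gene, 105.6. ULT2, the paralog of ULT1, was not in the table, and neither were SQN, MIF2, HUA1, HUA2, HEN4, SEU, LUG, RBE, PNY, CLF, LHP1, FIE and GIK. SQN (AT2G15790) lay 841 kb from the nearest peak, in the same stretch without a listed peak as WUS. The limit given for WUS thus holds for SQN too.

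The list of partners of UFO and PAN also holds bZIP relatives of PAN. In this list, 3 of 7 genes were in the table, against 6.62% of all protein-coding genes. Of these 3, only ROXY1 is the gene of a partner, and the others are the relatives TGA9 and TGA10. The genes of the ubiquitin ligase in which UFO acts, ASK1, ASK2 and CUL1, were not in the table. The glutaredoxin gene ROXY1, whose product interacts with PAN, scored 630.5, at 1000 to 2000 bp upstream, while ROXY2 was not in the table. The bZIP genes TGA9 and TGA10, relatives of PAN, scored 376.22 and 965.18. PAN itself, as given above, had no peak within 10000 bp.

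**Figure D4:**
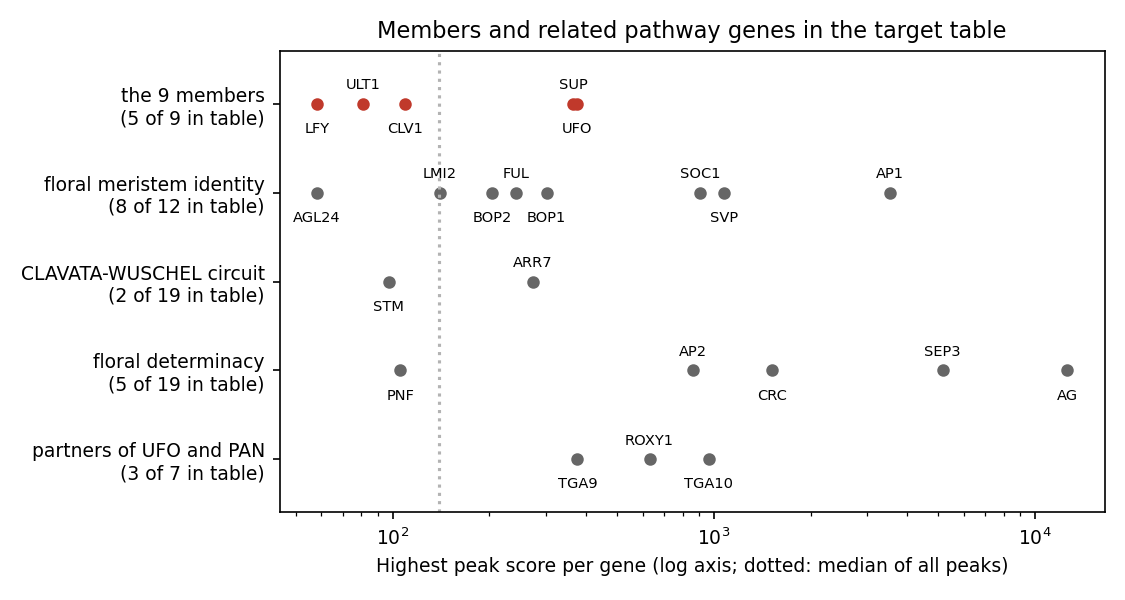
Highest score per gene (log axis) for the 5 genes in the target table (red) and for the related genes in it (grey), 1 row per list, with the number in the table of the number looked up. The dotted line is the median peak score of 139.67. LFY, ULT1 and CLV1 lie to its left, with AGL24, STM and PNF.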

How the data were processed

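Tables of peaks and of target genes were deposited, 1 of each for the series. Both hold a Poisson score per the file headers, with no value per library. Per the submitters' processing notes, the build is TAIR10. How reads were aligned, peaks called and replicates handled is not given in the sources used here. That build derives from Columbia plants and the samples are Ler-0, so sites in sequence particular to Ler-0 would be missed. In the deposited peak list the headers of position and score were exchanged, and columns were read by their values. The coordinates and widths are, per the file headers, other quantities in bp.

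The target table gives, per the file headers, the highest score from 3000 bp upstream to 1000 bp downstream in 5 regions. Names and gene spans came from RefSeq (TAIR10.1), which matched 1916 of 1958 target genes; distances run from these spans to peak positions, and none of their coordinates is printed. A peak was assigned to a table gene whose score it matched within 3200 bp, and orientation was taken from the side with the listed upstream scores. No genome sequence was used. Distances were checked on simulated data. The 9 genes and the lists were chosen with earlier results of these data known; 1 of 67 identifiers did not match its symbol and was dropped. Named were all 9 genes, the list genes, genes sharing a peak, up to 2 genes tied in score and region, and genes at the nearest peaks. Analyses used Python 3.11.15, pandas 2.3.3, numpy 2.4.6, scipy 1.17.1 and matplotlib 3.10.9.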

Additional observations from a re-analysis of the deposited data

How the results depend on the processing

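The count of 5 of the 9 genes in the table moved to 2 without the peaks below the median score and to 4 with only 1000 bp upstream and the gene. It was 5 with the nearest protein-coding gene only, with any overlap of the whole peak within 3000 bp and with peak positions within 5000 bp on both sides. The share of all protein-coding genes was 3.42%, 3.31%, 4.55%, 9.21% and 13% under these settings, in the same order. The related genes numbered 15, 13, 16, 20 and 21 of 57. Measured to the nearest peak edge, WUS lay at 108 kb, KNU at 52.3 kb, PAN at 17.2 kb and CLV3 at 15.8 kb. Without the peaks below the median score, the distance became 130 kb for WUS, 70.5 kb for KNU and 56.7 kb for CLV3, and for PAN it was 17.4 kb. The share of lower peaks differed from the share of lower target genes by at most 2.1 percentage points for the 5 listed genes. The flanks were taken on both sides because the gene table gives no strand. No paired analysis was possible because the tables hold no value per library, and for the same reason no replicate could be left out. Depth is unknown, so a missing peak cannot be told apart from one that was not detectable.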

Other observations

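Of the 57 related genes, 18 were in the target table, and among the rest 3 had a peak within 5000 bp. This search was made after the values were seen. Of all protein-coding genes not in the table, about 7% lay within 5.08 kb of a peak, so the count is a description only. RBE, a zinc finger gene of petal development, lay 1161 bp from a peak of 609.99 at chr5:1826829-1827283, which is assigned to AT5G06060. TFL1, which keeps shoot meristems from becoming flowers and is known as an antagonist of LFY, lay 1507 bp from a peak of 85.33. That peak, at chr5:1022878-1023130, is assigned to no gene of the table. The target table covers 3000 bp upstream and 1000 bp downstream. At 1161 and 1507 bp, the peaks near RBE and TFL1 fall outside these regions only if they lie on the 3' side. RPK2, a receptor kinase gene of the CLAVATA pathway, lay 3832 bp from a peak of 164.32 at chr3:375929-376894, which is assigned to AT3G02110, AT3G02120 and AT3G02125.

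The other 4 unassigned peaks that scored at least as high as the one downstream of SUP had values of 1257.59 to 1622.49. The peak of 1257.59 lay 3.43 kb from HB40, a homeobox gene, and the peak of 1622.49 lay 1.67 kb from AT1G31040. The peak of 1284.16 lay inside AT1G40104. The peak of 1454.49 was far from genes, with the nearest protein-coding gene, AT5G30520, at 87.8 kb.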
